A study of Mustela putorius furo and Mus musculus with 4 samples.

Results

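Glutamate that neurons release is cleared mainly by astrocytes, which take it up with sodium-coupled transporters of the SLC1 family and convert much of it to glutamine with glutamine synthetase. The glutamine is passed back to neurons, where glutaminase turns it into glutamate again, and the loop is known as the glutamate-glutamine cycle. Inside astrocytes, glutamate can also enter the tricarboxylic acid cycle, through glutamate dehydrogenase or through transaminases. The 7 genes described here are the glutamate transporters Slc1a1, Slc1a2 and Slc1a3, the neutral amino acid transporters Slc1a4 and Slc1a5 of the same family, the glutamine synthetase gene Glul and the glutamate dehydrogenase gene Glud1. They were chosen by gene symbol, without regard to case, from tables of FPKM, a level that counts sequenced fragments relative to exon length and to all mapped fragments of the library. Of the 7 genes, 6 were among the 13373 symbols shared by both species. Glud1 was matched in the mouse alone, and a ferret value of it was not used here.

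Expression had been measured by RNA sequencing in 2 libraries of primary astrocytes from the cerebral cortex of sable ferrets at postnatal day 1, and in 2 libraries from wild-type ICR mice at postnatal day 1 to 3. Both kinds of culture were grown as mixed glia in serum for 14 days, shaken for 12 h and replated, at first in serum again. For the last days before RNA was harvested they were kept in a serum-free medium. It had added L-glutamine, N-acetyl cysteine and heparin-binding EGF-like growth factor. In the mixed glial cultures, a single ferret pup filled several flasks, whereas several mouse pups were pooled in a flask. No source states whether the 2 libraries of a species came from separate cultures, so p-values measure the spread between these libraries, which may be technical, and an exact permutation test of 2 against 2 libraries cannot fall below 0.333 (two-sided) for a single gene. Species, gene models and culture cannot be told apart in this design.

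The library totals of the shared symbols ranged from 227391 to 236543 FPKM in ferret and from 300465 to 308121 FPKM in mouse. Read counts were not used, and low values show only the relative depth of duplicates (1.17 for ferret replicate 1 over replicate 2, and 0.829 for the mouse pair). The median absolute difference between duplicates was 0.084 in ferret and 0.065 in mouse on the log2 scale. Of 8 astrocyte markers all 8 had values above 0 in every library, with Gfap at 1502 ± 29.1 FPKM in ferret and 1487 ± 82.7 in mouse (SD, n = 2), while Aqp4 stood at 23.3 ± 2.11 and 206 ± 5.96 (SD, n = 2).

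Of the 6 genes with values in both species, 4 were lower in ferret astrocytes (Slc1a2, Slc1a3, Slc1a4 and Glul) and 2 were higher (Slc1a1 and Slc1a5). A call required a Benjamini-Hochberg adjusted p under 0.05 by limma on log2(FPKM + 1) and an absolute log2 difference above 1. With the same rule 30.1% of the 10204 tested genes were lower in ferret and 13.1% were higher (43.2% in all), and 88.6% passed on the adjusted p alone, so calls of either kind were common. In all 6 genes the 2 ferret libraries lay outside the range of the 2 mouse libraries, as in 94.1% of tested genes (ferret below mouse in 59.0% and above in 35.1%). The median log2 difference of the 6 genes was -1.38, against -0.35 over the whole set of tested genes. In these bulk libraries, fewer cells of a type and less RNA per cell cannot be told apart.

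**Figure D1:**
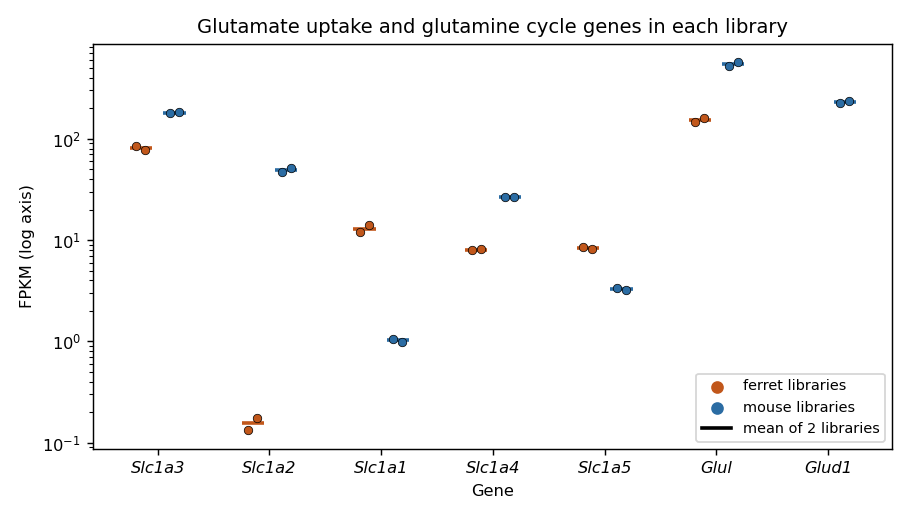
FPKM of the 7 genes on a log axis in the 2 ferret libraries (orange) and the 2 mouse libraries (blue), each point a library and each bar the mean of the 2. Glud1 is drawn for mouse alone. The points of a species lie close together, and the species do not overlap in the 6 genes drawn for both. Slc1a2 shows the widest gap, from 0.178 FPKM in the higher ferret library to 47.1 in the lower mouse library.

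The order of the genes by level per exon length differed between the species. In mouse astrocytes, Glul stood highest and was followed by Glud1, Slc1a3, Slc1a2, Slc1a4, Slc1a5 and Slc1a1. In ferret astrocytes, Glul again stood highest and Slc1a3 came second, but Slc1a1 came next, ahead of Slc1a5 and Slc1a4, and Slc1a2 was last. The closest neighbours in ferret were Slc1a5 and Slc1a4, at 8.20 FPKM in the lower library of the first and 8.11 in the higher library of the second, a gap smaller than the spread between the duplicates of Slc1a5 (SD 0.228). In each of the other neighbouring pairs the gap between the nearest libraries exceeded the SD of both genes.

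Slc1a3 encodes GLAST, or EAAT1, the glutamate transporter typical of radial glia and young astrocytes. It was measured at 84.4 and 76.6 FPKM in the 2 ferret libraries and at 177 and 185 FPKM in the 2 mouse libraries. Both ferret libraries were below both mouse libraries, and limma gave a log2 difference of -1.16 (SE 0.065, adjusted p = 7.11e-08). Among the 13373 shared symbols, it ranked at positions 437 and 532 in ferret and at 213 and 210 in mouse. It was therefore among the highly expressed genes of both species. The size of the difference depended on how the libraries were scaled to each other. Once all 4 libraries were brought to the same total, limma gave -0.77 (SE 0.066, adjusted p = 2.78e-05), inside the limit of 1, and after quantile normalization it was -0.81. The mouse gene lies on the minus strand of chromosome 15 of GRCm38, the build of all mouse coordinates here, from 8634124 to 8710764, with 13 exonic regions in the GENCODE annotation.

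Slc1a2 encodes GLT-1, or EAAT2, which carries most glutamate uptake in the adult forebrain and is known to be low in cultured astrocytes grown without neurons. Its FPKM was 0.133 and 0.178 in ferret and 47.1 and 51.8 in mouse. The ferret values were near the bottom of the scale and the mouse values in the upper range of expressed genes, at positions 10719 and 10496 of 13373 symbols in ferret and 1313 and 1191 in mouse. The difference was -5.45 in log2 (SE 0.077, limma adjusted p = 1.44e-11), and the mean FPKM was 319 times higher in mouse. Counting Slc1a2 itself, 32 of the 10204 tested genes had a log2 difference as low. The pseudocount sets the size at such low values, and with a pseudocount of 0.1 the difference was -7.61. The mouse gene lies on the plus strand of chromosome 2 from 102658659 to 102790784 in 20 exonic regions, of which 189 bases are shared with exons of the antisense gene Gm13872.

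Slc1a1 encodes EAAC1, or EAAT3, the transporter known mostly from neurons, which also carries cysteine. In contrast to the other glutamate transporters it was higher in ferret, at 11.9 and 13.9 FPKM, than in mouse, at 1.05 and 0.997 FPKM. The lower ferret library exceeded the higher mouse library more than the duplicates differed from each other, and the mean was 12.6 times higher in ferret. In log2 the gap was 2.78 (SE 0.088, limma adjusted p = 1.31e-09), and 1.55% of tested genes had a difference as high or higher. It ranked at 3901 and 3492 in ferret and at 9578 and 9611 in mouse. The mouse gene, on the plus strand of chromosome 19 from 28835049 to 28913960, shares 2631 exonic bases with 4430402I18Rik on the opposite strand. The library kit keeps strand, but the strand setting of the quantification is not given in the sources used here.

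Some markers of neurons were higher in ferret together with Slc1a1, as were 13.1% of all tested genes. Of the 4 neuron markers that could be tested, 3 were higher in ferret, namely Syt1 (5.02 ± 0.115 FPKM against 1.19 ± 0.092), Nefl (5.05 ± 0.892 against 0.115 ± 0.032) and Dcx (1.46 ± 0.288 against 0.028 ± 0.019; SD, n = 2 in each case). Map2 was not called, at a log2 difference of -0.68. Stmn2, a further marker of this list, stood at 124 and 127 FPKM in mouse, and a ferret value of it was not used here. The summed level of the 6 neuron markers with values in both species ranged from 30.8 to 31.6 FPKM in ferret and from 32.0 to 33.3 in mouse, mostly from Map2. Rbfox3, which encodes the neuronal antigen NeuN, stood at 0 and 0.035 FPKM in ferret and at 0.067 and 0.084 in mouse. The part of neurons in the difference of Slc1a1 was not tested.

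Slc1a6 belongs to the same branch of the family and encodes EAAT4, a transporter known from cerebellar Purkinje cells. It was measured at 43.1 and 43.0 FPKM in the mouse cortical astrocytes, close to the level of Slc1a2, and at 0.214 and 0.228 FPKM in ferret. In limma the difference was -5.17 in log2 (SE 0.070, adjusted p = 1.09e-11), next to that of Slc1a2 in size. The mouse gene lies on the plus strand of chromosome 10 from 78780496 to 78814765, and no stretch of its transcripts as long as a sequencing read recurs in a transcript of another gene. Slc1a7, which encodes the retinal transporter EAAT5, stood under 0.05 FPKM in every library and was not tested.

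Within each library, the makeup of the glutamate transporters can be read without any scaling between species. The shares still depend on the gene models and exon lengths of each species, and those of ferret were not checked here. Slc1a3 made up 86.0% ± 2.19 of the summed FPKM of Slc1a1, Slc1a2 and Slc1a3 in ferret and 78.2% ± 0.625 in mouse (SD, n = 2). The remainder differed in kind. In ferret it was almost wholly Slc1a1, at 13.9% ± 2.15, with Slc1a2 at 0.167% ± 0.041, whereas in mouse it was almost wholly Slc1a2, at 21.4% ± 0.657, with Slc1a1 at 0.443% ± 0.032 (SD, n = 2 throughout). The summed FPKM of the 3 genes was 93.6 ± 4.02 in ferret and 231 ± 8.46 in mouse (SD, n = 2). With Slc1a6 in the sum, an addition made after its values were seen, this gene took 15.7% ± 0.517 in mouse and 0.236% ± 0.021 in ferret, and the mouse share of Slc1a3 became 65.9% ± 0.123.

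**Figure D2:**
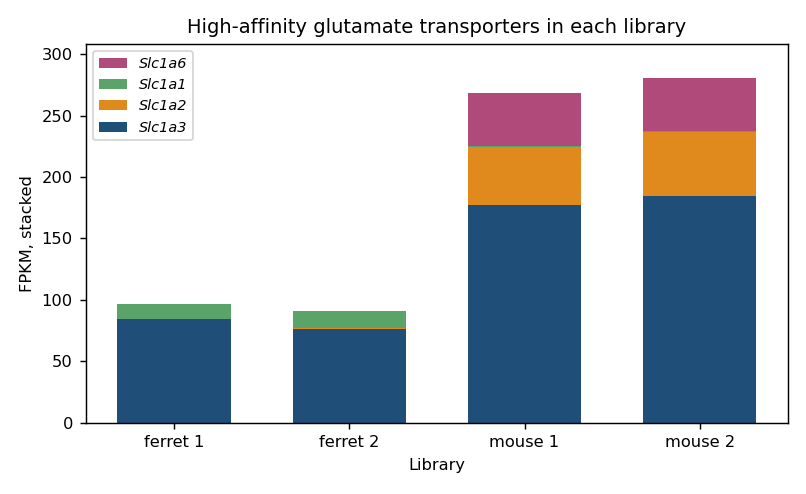
Stacked FPKM of 4 high-affinity glutamate transporter genes in each of the 4 libraries (bars start at 0, no error bars because each bar is a library). Slc1a3 is the largest block in every library, above it lies mostly Slc1a1 in ferret and mostly Slc1a2 and Slc1a6 in mouse, and the remaining genes are no more than a thin line.

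Slc1a4 and Slc1a5 encode ASCT1 and ASCT2, exchangers of neutral amino acids. ASCT1 carries serine, alanine and threonine, and ASCT2 also carries glutamine. The genes differed between the species in opposite directions. Slc1a4 had 7.98 and 8.11 FPKM in ferret and 26.5 and 26.8 FPKM in mouse. The limma estimate was -1.61 in log2 (SE 0.062, adjusted p = 5.08e-09). Slc1a5 had 8.52 and 8.20 FPKM in ferret and 3.35 and 3.20 FPKM in mouse, 1.13 apart in log2 (SE 0.073, limma adjusted p = 2.05e-07). For both genes the duplicates differed little and the species lay apart. Within a library, Slc1a4 stood at 0.937 and 0.989 times the level of Slc1a5 in ferret and at 7.90 and 8.36 times in mouse. The mouse genes lie on chromosome 11, from 20302180 to 20332713 (minus strand), and on chromosome 7, from 16781340 to 16798274 (plus strand).

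Glul encodes glutamine synthetase, the enzyme that makes glutamine from glutamate and ammonia and a classical marker of mature astrocytes. It was measured at 145 and 160 FPKM in ferret and at 519.9 and 566 FPKM in mouse. Both ferret libraries were well below both mouse libraries, a difference of -1.82 in log2 (SE 0.071, limma adjusted p = 5.44e-09), and the mean was 3.55 times higher in mouse. By rank it was among the highest genes in each library, at positions 200 and 181 in ferret and 48 and 43 in mouse. The ratio of Glul to Slc1a3 within a library was 1.72 and 2.09 in ferret and 2.93 and 3.07 in mouse. The mouse gene lies on the plus strand of chromosome 1 from 153899944 to 153909723, and 1.71% of the read-length stretches of its transcripts recur in the pseudogene Glns-ps1. Its exons share 116 bases with those of Teddm2 on the opposite strand and 93 bases with the microRNA gene Mir8114 on the same strand.

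Glud1 encodes glutamate dehydrogenase, the mitochondrial enzyme that converts glutamate to 2-oxoglutarate. In mouse astrocytes it was measured at 225 and 237 FPKM, between Glul and Slc1a3, and ranked at 320 and 310 of the 55257 mouse values. Ranks of the other genes were taken among the 13373 shared symbols and cannot be set beside these. The gene lies on the plus strand of chromosome 14 from 34310727 to 34345265, and 2.77% of its read-length stretches recur in transcripts of 2 other genes, Gm43444 and Glud-ps. No comparison between the species was made for it.

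**Figure D3:**
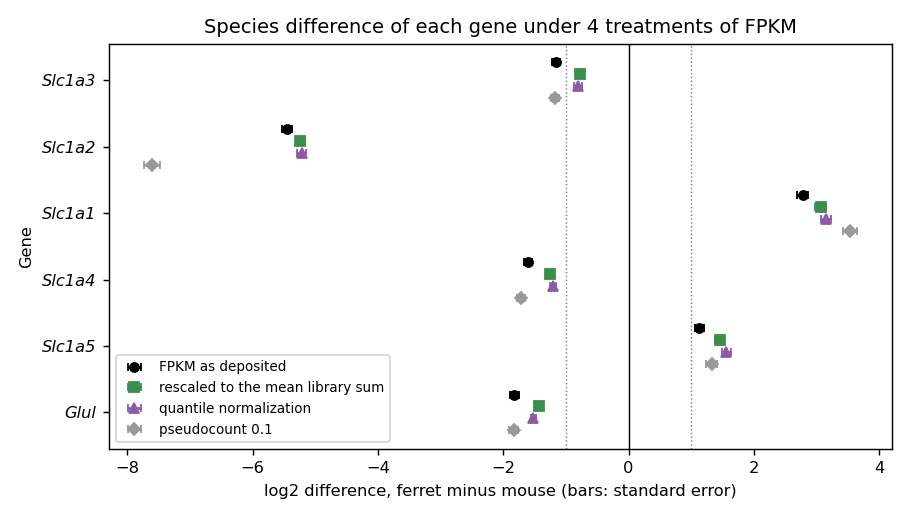
Log2 difference (ferret minus mouse, with its standard error) of the 6 genes with FPKM as deposited, after 2 other scalings of the libraries and with a pseudocount of 0.1; dotted lines mark the limit of 1. Slc1a3 falls inside the limit after either scaling, the other 5 genes stay outside it, and none changes direction.

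FPKM as deposited placed most genes lower in ferret, so the scaling between species bears on every difference above. Over all tested genes, 1336 were called higher and 3069 lower in ferret. At equal library totals, 1954 were higher (19.1%) and 2215 lower (21.7%), and after quantile normalization 2080 were higher (20.4%) and 2082 lower (20.4%). The median over all tested genes moved in log2 from -0.35 to -0.01 and 0.05. Relative to the median with FPKM as deposited, Slc1a2 stood at -5.10, Glul at -1.47, Slc1a4 at -1.26, Slc1a3 at -0.81, Slc1a5 at 1.48 and Slc1a1 at 3.13.

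**Figure D4:**
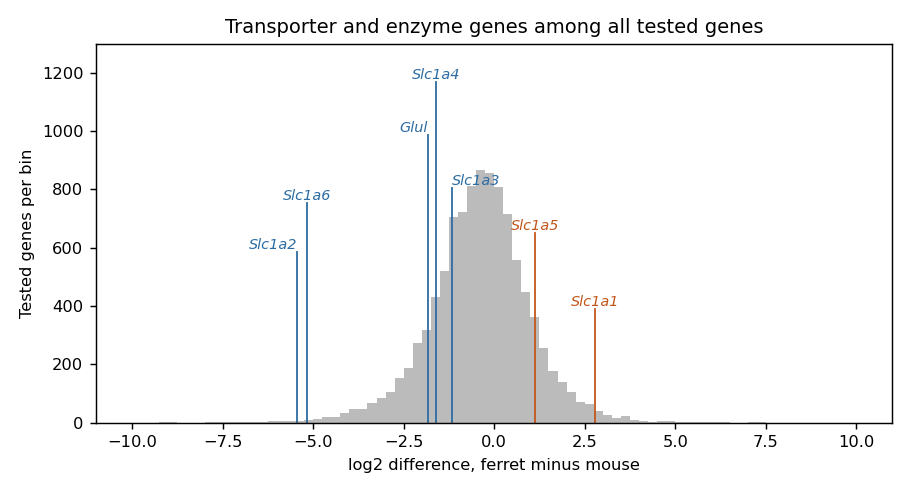
Number of tested genes per bin of 0.25 in log2 difference (ferret minus mouse), with lines at the values of the 6 genes and of Slc1a6 (line height has no meaning). Slc1a2 and Slc1a6 lie in the far lower tail and Slc1a1 in the upper tail, while Slc1a3, Slc1a4, Glul and Slc1a5 lie within the flanks of the main body.

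Other genes that supply, use or power glutamate handling were counted in 11 lists of 49 genes, of which 39 could be tested. Of these, 12 were lower in ferret (30.8%), 7 were higher (17.9%) and 20 were not called, beside 30.1% and 13.1% of all tested genes. The median difference of the 39 genes was -0.39 in log2. The lists as a whole thus stood near the background, and single lists did not all point the same way.

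The sodium and potassium gradients that drive glutamate uptake are kept by the sodium pump. Its genes were listed together with Kcnj10, of the potassium channel Kir4.1. Of these 5 genes, 4 were lower in ferret, beside 30.1% of all tested genes. Atp1b2, the pump's glial beta subunit, had 6.03 and 5.43 FPKM in ferret and 445 and 480 in mouse. The Kir4.1 gene Kcnj10 stood at 2.72 ± 0.560 FPKM in ferret and 429.6 ± 20.2 in mouse (SD, n = 2). Ferret and mouse were apart by -6.11 in log2 for Atp1b2 and by -6.86 for Kcnj10. The beta subunit Atp1b1 was lower as well, with a log2 difference of -1.39, and was at -0.99 after quantile normalization.

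Glutamine leaves and enters cells through SLC38 transporters. Slc38a3, which encodes the astrocytic glutamine transporter SN1, had 4.15 and 4.40 FPKM in ferret and 166 and 176 in mouse. The difference of -5.03 in log2 (SE 0.063, limma adjusted p = 8.15e-12) was near that of Slc1a2. The other 3 tested genes of this list were not called, with log2 differences of -0.60 for Slc38a1, 0.47 for Slc38a2 and -0.45 for Slc38a7. Slc38a5, the gene of a related glutamine transporter, was below 1 FPKM in both species and was not tested, with 0.930 and 0.952 FPKM in ferret and 0.017 and 0 in mouse.

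The cystine-glutamate exchanger releases glutamate in return for cystine and consists of a light and a heavy chain. Its light chain gene Slc7a11 was higher in ferret, at 99.5 ± 5.80 FPKM against 14.4 ± 1.05 in mouse (SD, n = 2), and 3.05 above the median gene in log2 (limma adjusted p = 3.99e-10 for the difference between species). The heavy chain gene Slc3a2, which also serves other amino acid transporters, was lower in ferret, at 63.4 ± 5.54 FPKM against 232 ± 10.4 (SD, n = 2), a log2 difference of -1.86. The 2 chains thus differed between the species in opposite directions.

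Among enzymes around glutamate, calls went both ways. The glutaminase gene Gls2 was higher in ferret, at 1.94 ± 0.096 FPKM against 0.246 ± 0.057 in mouse (SD, n = 2). Of 6 tested transaminase genes, 3 were higher in ferret, beside 13.1% of all tested genes. Gpt2, of mitochondrial alanine transaminase, had a log2 difference of 1.45, and Bcat1, of the cytosolic branched-chain transaminase, of 1.51. Gpt, of the cytosolic alanine transaminase, had a log2 difference of 1.03 and was at 0.90 without mouse replicate 1, under the limit of 1. Psat1, which moves an amino group from glutamate during serine synthesis, was lower, at 26.7 ± 1.54 FPKM against 109.8 ± 2.42 (SD, n = 2). None of the 6 tested enzymes that use glutamine as a nitrogen donor, such as Asns and Gfpt1, was called, with log2 differences from -0.49 to 0.55. Among all tested genes, 43.2% were called in either direction.

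In mitochondria, the glutamate carrier gene Slc25a18 was lower in ferret, at 0.412 ± 0.037 FPKM against 16.4 ± 0.119 in mouse (SD, n = 2), and the aspartate-glutamate carrier gene Slc25a13 was higher, at 8.06 ± 0.274 against 2.77 ± 0.111 (SD, n = 2). Slc25a22, the other glutamate carrier, was not called, with a log2 difference of 0.23. The other aspartate-glutamate carrier gene, Slc25a12, stood above Slc25a13 in both species and was not called. It had 25.6 ± 1.17 FPKM in ferret and 27.3 ± 0.997 in mouse (SD, n = 2). Sirt4, an inhibitor of glutamate dehydrogenase, was lower in ferret, at 0.522 ± 0.067 FPKM against 10.3 ± 1.63 (SD, n = 2). Ogdh, of the 2-oxoglutarate dehydrogenase complex, was called lower at -1.06 and was at -0.67 at equal library totals. Gad1, which makes GABA from glutamate in neurons, was higher in ferret at 1.93 ± 0.149 against 0.318 ± 0.031 (SD, n = 2). The proline synthesis gene Aldh18a1 was not called, with a log2 difference of 0.81 that became 1.18 at equal library totals. Of the 5 tested trafficking partners of the transporters, Nedd4l alone was called, with a log2 difference of -1.91, beside 43.2% of all tested genes called. The vesicular glutamate transporter genes Slc17a6, Slc17a7 and Slc17a8 stayed below 1 FPKM in every library.

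**Figure D5:**
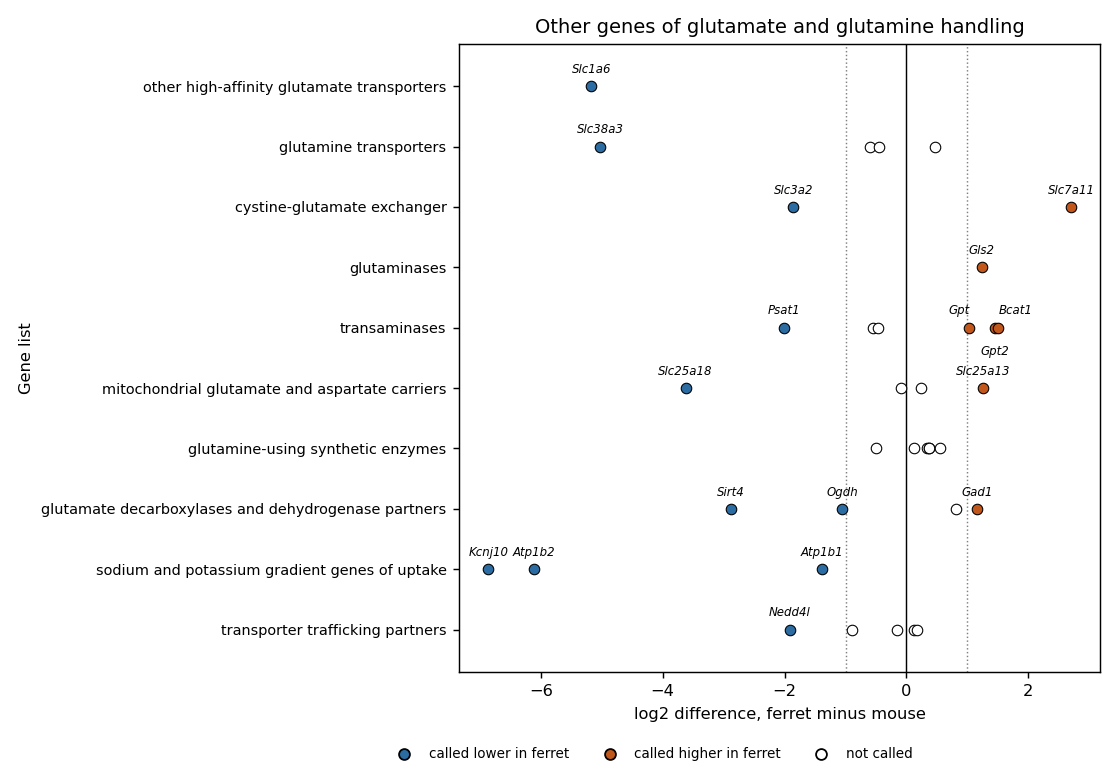
Log2 difference (ferret minus mouse) of tested genes in 10 lists of glutamate and glutamine handling (3 of the 39 are not drawn), each point a gene, filled where it was called and named beside it; dotted lines mark the limit of 1. Kcnj10, Atp1b2, Slc1a6 and Slc38a3 lie below -4, and Slc7a11 is the highest point.

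By Euclidean distance over log2(FPKM + 1) in the 4 libraries, the 3 tested genes nearest to Slc1a2 were the leukocyte gene Laptm5 (distance 0.110), the thrombospondin gene Thbs2 (0.227) and Slc1a6 (0.315). The nearest to Slc1a3 were Capzb (0.242), Col4a1 (0.246) and Arf4 (0.253). The nearest to Glul were Prss23 (0.271), Hspb1 (0.371) and Itgb1 (0.418). With 4 libraries in 2 groups, nearness says little more than equal levels in both species.

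Some markers of astrocytes and of other cells were also called with the same rule. Of all tested genes, 30.1% were lower in ferret and 13.1% were higher. Of 8 astrocyte markers, 4 were lower in ferret (Aqp4, Aldh1l1, Ndrg2 and Gja1), S100b was higher and 3 were not called (Gfap, Sox9 and Aldoc). Relative to the median of all tested genes, Gja1 stood at -0.99. All 7 tested microglia markers were lower in ferret, with a sum from 6.81 to 6.82 FPKM in ferret and from 157 to 158 in mouse, and Cx3cr1 was listed at 0 in both ferret libraries. All 6 fibroblast markers were lower in ferret, with sums from 111 to 126 FPKM in ferret and from 809 to 853 in mouse. Of 6 tested oligodendrocyte lineage markers, 3 were higher in ferret, Sox10 and Mbp among them, with sums over 7 genes from 88.0 to 94.7 FPKM in ferret and from 21.1 to 23.1 in mouse. The other 3 were not called, and of these Olig2 (5.05 ± 0.187 FPKM against 9.71 ± 0.131; SD, n = 2) and Cspg4 (1.04 and 1.16 FPKM against 2.00 and 1.81) were lower in both ferret libraries than in both mouse libraries, while Pdgfra stood at 3.15 ± 0.117 against 1.44 ± 0.288 (SD, n = 2). Olig1 stood at 107 and 117 FPKM in mouse, and a ferret value of it was not used here. Of the 4 endothelial markers only Cdh5 could be tested, and it was lower in ferret, while Pecam1 stayed under 0.05 FPKM in every library. The part of these cells in the differences of the transporter and enzyme genes was not tested.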

How the data were processed

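Paired reads came from polyA-selected libraries of a stranded kit. Per the submitters' processing notes and the methods, the authors aligned them with STAR (2.7.0f, default settings) to the Ensembl genome of each species (GRCm38 for mouse) and deposited FPKM per gene from Cufflinks (2.2.1), normalized to mapped fragments and exon length. The mouse files list 37 symbols that start with mt-, the ferret files 0. Read counts were not used here, and FPKM alone gives no absolute depth.

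Symbols were matched in upper case, taking the value with the highest species mean where a symbol had several (7 ferret and 13 mouse symbols, none of the members). Species were compared with limma (3.58.1, R 4.3.3, empirical Bayes with a trend) on log2(FPKM + 1), which understates changes of low genes. The 10204 genes tested averaged 1 FPKM or more in either species, and p-values were adjusted by Benjamini-Hochberg over all of them. The fit was tested on simulated data with 200 of 10204 genes raised in ferret, far fewer than were called in these libraries. Mouse coordinates and exonic regions come from GENCODE on GRCm38, which need not be the authors' gene models, and read-length stretches were compared between its transcripts. All members are named, lists were counted whole (values of some of their genes are not reported here), and the 3 genes closest to Slc1a2, Slc1a3 and Glul were named by distance. The members and lists were chosen with earlier results of these data known. Alternatives were a pseudocount of 0.1, no filter, 3 scalings, the replicate number as a block, no trend, other rules for symbols with several values, and each library left out. After the data were seen, Slc1a6 was added to the transporter sum and differences were also taken relative to the median gene.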

Additional observations from a re-analysis of the deposited data

How the results depend on the processing

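In the 13 alternatives fitted, Slc1a1, Slc1a2, Slc1a4, Slc1a5 and Glul kept their direction and stayed past the threshold. Slc1a3 kept its direction (-1.16 with FPKM as deposited) but lay inside the limit of 1 at a total of 1000000 per library (-0.78), at the mean library total (-0.77), after quantile normalization (-0.81) and relative to the median of all tested genes (-0.81). Genes called higher in ferret numbered 2197 and 2080 with the first and the third of these scalings, against 1336. Slc25a12 (-0.09) turned to 0.29, 0.28 and 0.29 and Arhgef11 (-0.16) to 0.21, 0.19 and 0.27 under the 3 scalings, and neither was called. The cause was not tested. With Slc1a6 in the sum, mouse shares were 0.373% for Slc1a1, 18.01% for Slc1a2 and 65.9% for Slc1a3. The replicate numbers gave no sign of pairing (correlation of same-numbered deviations 0.0099), and with the replicate number as a block 1342 genes were higher and 3072 lower, with no change of call among the 6 genes. No depth limit is given, since read counts were not used here.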
